A study of Mus musculus with 135 samples.

Results

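Immunoglobulin and plasma cell transcripts were followed as 7 genes in bulk RNA from cortex and hippocampus of male Townes mice. The 7 genes are the antibody constant genes Ighm, Ighg2c, Ighg2b, Igha and Igkc, the joining chain gene Jchain and the B cell receptor gene Cd79a, and they were found by symbol among the 55416 genes of each count table. They were chosen by their read counts and CPM in these same libraries, so fold changes and adjusted p-values are given to describe them and stand for no independent support. The groups were AA mice, which carry normal human hemoglobin, and SS mice, which carry human sickle hemoglobin, each left alone, exposed to repeat social defeat (RSD), given minocycline, or given both. In RSD a male aggressor was put into the cage of 6-month-old males for 2 hours on each of 6 days, and minocycline, an antibiotic, was given in the drinking water from 1 day before. All groups of both genotypes carry human in place of mouse adult globin genes, and brains were taken after behavioural testing.

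Antibodies are made by B cells and, in far larger amounts, by plasma cells, the secreting cells into which B cells mature. An antibody pairs 2 heavy chains, whose class is set by the constant gene in use, with 2 light chains, most of which are kappa chains in the mouse. Ighm encodes the heavy chain of IgM, the class that naive B cells carry, while Ighg2c and Ighg2b encode IgG heavy chains and Igha that of IgA, all made after class switching. Igkc encodes the constant part of the kappa light chain. Jchain joins IgM or IgA units into polymers, and Cd79a is the signalling partner of the antibody on the B cell surface, present from early stages of the B cell lineage on. In the brain these cells are few, and most of them sit at its borders, in the meninges and near the choroid plexus. Mouse strains differ in whether they carry Ighg2c or its counterpart Ighg2a, and Ighg2a is not analysed here.

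Positions are those of GRCm39 in the GENCODE M39 annotation. Ighm (chr12:113382178-113386350), Ighg2b (chr12:113266585-113271553), Ighg2c (chr12:113248945-113252552) and Igha (chr12:113218450-113223856) lie in this order on the minus strand of chromosome 12. Igkc (chr6:70703419-70703950) is 1 exon of 532 bases on the plus strand, inside an intron of the lncRNA Gm30211 and opposite the lncRNA Gm68839. Jchain (chr5:88667668-88675750) has no overlapping gene, and Cd79a (chr7:24596740-24601622) is overlapped by Gm72234 and Gm72264. The libraries kept strand, but the strand setting of the counting is not given in the sources used here, so Igkc and Cd79a reads could include reads of these neighbours. Ighg2c and Ighg2b, which differed widely in level, are near-copies, and their hinge exons show where they part. The capitals mark in-frame cysteine codons, which link the 2 heavy chains; the Ighg2c exon (chr12:113251883-113251945, minus strand) has 3 and the Ighg2b exon (chr12:113270881-113270946, minus strand) has 4.
Ighg2c hinge: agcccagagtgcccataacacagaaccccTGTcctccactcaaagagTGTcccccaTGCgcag
Ighg2b hinge: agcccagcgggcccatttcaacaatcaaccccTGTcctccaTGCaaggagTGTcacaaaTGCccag

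The exons of the other constant domains of the pair were identical at 87.6% (CH1), 94.2% (CH2) and 76.2% (CH3) of bases. Stretches as long as a read (85 bases) were looked up in the transcripts of other annotated immunoglobulin or predicted genes. Of these, 0 of 1241 in Ighg2c and 4 of 2593 in Ighg2b occurred there unchanged. Reads that match the annotated pair exactly could thus mostly be placed on the right copy. Reads with mismatches, and reads of Ighg2a in mice that carry it, are not covered by this check. Such unchanged stretches numbered 7 of 2427 in Jchain and 42 of 2019 in Cd79a, the latter shared with the pseudogene Gm32220.

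Of 134 libraries with a labelled group, 66 of the cortex and 64 of the hippocampus were used, with 12869149 to 107713193 reads on genes. At these depths 3 reads were worth 0.0279 to 0.233 CPM (counts per 1000000 reads on genes). In each tissue mouse 9877 (AA + RSD + minocycline) and mouse 9887 (SS + minocycline) had identical counts on every gene, and both were left out. Cortex and hippocampus numbers used were 12 and 11 AA, 3 and 3 AA + RSD, 18 and 18 AA + RSD + minocycline, 8 and 7 SS, 6 and 6 SS + RSD, 14 and 14 SS + RSD + minocycline and 4 and 4 SS + minocycline mice, with 1 AA + minocycline mouse. The libraries of mouse 9674, of the 3 AA + RSD mice, went against their tissue labels: 4 cortex markers (Rorb, Cux2, Tbr1, Mef2c) summed to 221 CPM in its cortex library and 805 CPM in its hippocampus library, where the other AA + RSD mice had 1013 and 1057 CPM, and 331 and 209 CPM. Transcripts of red blood cell precursors, higher in SS than in AA mice, were at 108.6 and 57.9 CPM in the cortex libraries labelled 5844 and 5853, both AA, and at 7.09 CPM in the library labelled 7078, an SS mouse. The hippocampus library of mouse 9631, an AA mouse, also stood apart, with 559 CPM over 5 hippocampus markers against a median of 246 CPM in AA mice. Mouse numbers fall into 3 runs, called here number series A (5349 to 5400 and 9615 to 9674), B (5645 to 5900 and 9810 to 9910) and C (7037 to 7121 and 10633 to 10639), whose meaning the labels do not give. All AA + RSD and SS + RSD mice belong to series A and all mice given minocycline to series B or C, so only untreated mice, in A and B, link series A to the others.

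Ighm was by far the most abundant member, and in bulk RNA the amount of such a transcript cannot be split into the number of cells and the RNA per cell. Since genes differ in length, levels between genes were compared as CPM per kilobase of exon. The median levels in the cortex were 15.3 CPM per kilobase for Ighm, 3.06 for Ighg2c, 0.737 for Igkc, 0.266 for Jchain, 0.25 for Cd79a, 0.0660 for Igha and 0.00257 for Ighg2b. The order in the hippocampus was Ighm (8.81 CPM per kilobase), Igkc (0.756), Jchain (0.294), Ighg2c (0.179), Cd79a (0.167), Igha (0.0801) and Ighg2b (0.00290). Jchain and Cd79a in the cortex, and Ighg2c and Cd79a in the hippocampus, were neighbours in this order whose ranges over libraries overlapped almost fully. Of the per-length reads on the 4 heavy chain genes, Ighm took 84.0% of the median cortex library and 96.1% of the median hippocampus library.

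**Figure D1:**
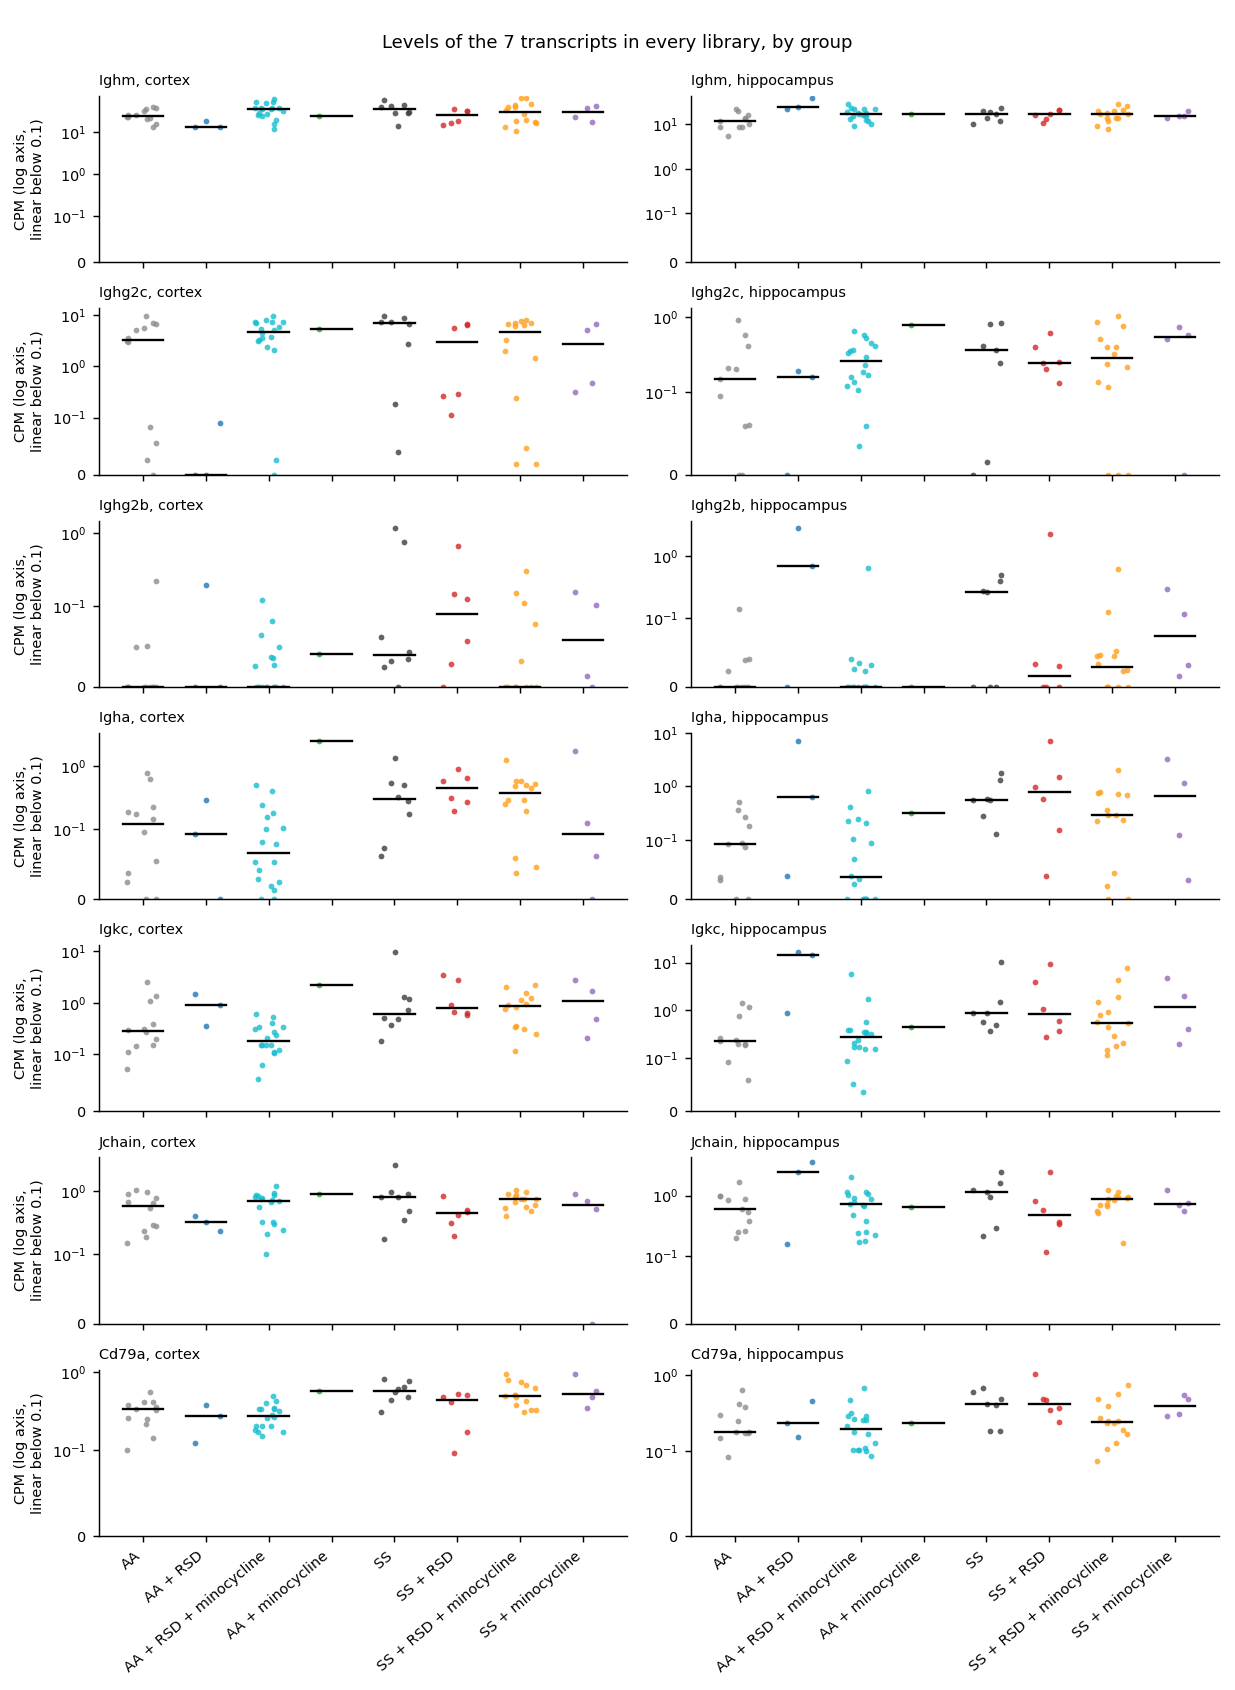
CPM of the 7 genes in every library used, by group, with the cortex on the left and the hippocampus on the right. Each point is a library, the black line is the median of the group, and the axis is logarithmic above 0.1 CPM and linear below. Ighm sits at 5.39 to 66.3 CPM in every library, whereas Igkc, Igha and Ighg2b are low in most libraries with a few far above them.

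Ighm was detected in all libraries, from 280 to 4633 reads in the cortex and from 192 to 1379 in the hippocampus. In the cortex the lowest, median and highest levels were 13.3, 24.2 and 38.7 CPM in AA mice, 14.1, 34.7 and 58.1 CPM in SS mice, and 14.6, 25.2 and 35 CPM in SS + RSD mice. The 3 AA + RSD mice had 13.4, 13.4 and 18.5 CPM. These groups overlapped, with the AA + RSD mice at the low end. After RSD with minocycline the cortex levels were 12, 35 and 61.9 CPM (lowest, median, highest) in AA mice and 10.8, 30.4 and 66.3 CPM in SS mice. In the hippocampus Ighm ranged from 5.39 to 22 CPM in AA mice (median 11.9) and from 10.4 to 23.9 CPM in SS mice (median 17.4), while the AA + RSD mice had 22.4, 24.8 and 39.8 CPM, all above the AA mice.

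Ighg2c, the IgG2c heavy chain, was either nearly absent from a cortex library or plain in it. In the cortex 20 libraries had 0 to 11 reads and 46 had 47 to 779 reads, with no library between. In 6 of the 8 groups there were libraries on both sides of this gap. The 3 AA + RSD mice had 0, 0 and 2 reads. Cortex levels ran from 0 to 9.38 CPM in AA mice (median 3.29), from 0.0404 to 9.40 CPM in SS mice (median 6.97), from 0 to 9.33 CPM in AA + RSD + minocycline mice (median 4.73) and from 0.0183 to 8.03 CPM in SS + RSD + minocycline mice (median 4.63). Within a group the mice thus spanned from few or no reads to many.

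The low libraries were spread unevenly over mouse numbers, whose meaning the labels do not give. Mouse numbers have 4 digits beginning with 5, 7 or 9, or 5 digits beginning with 10. Of mice with numbers beginning with 9, 19 of 32 lay below the gap, compared to 1 of 26 beginning with 5 (mouse 5844, with 3 reads), 0 of 5 beginning with 7 and 0 of 3 beginning with 10. This split was chosen after the values were seen. Among SS + RSD mice, the 3 with numbers beginning with 5 had 115, 254 and 473 reads and the 3 beginning with 9 had 4, 11 and 11. The 4 SS + minocycline mice divided likewise, with 320 and 363 reads in the mice beginning with 7 and 8 and 10 reads in those beginning with 9. Among AA mice, the 8 beginning with 9 lay on both sides, at 0, 1, 2, 81, 94, 122, 294 and 305 reads. All 3 AA + RSD mice have numbers beginning with 9, so part of any Ighg2c difference from them cannot be told apart from mouse number.

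**Figure D2:**
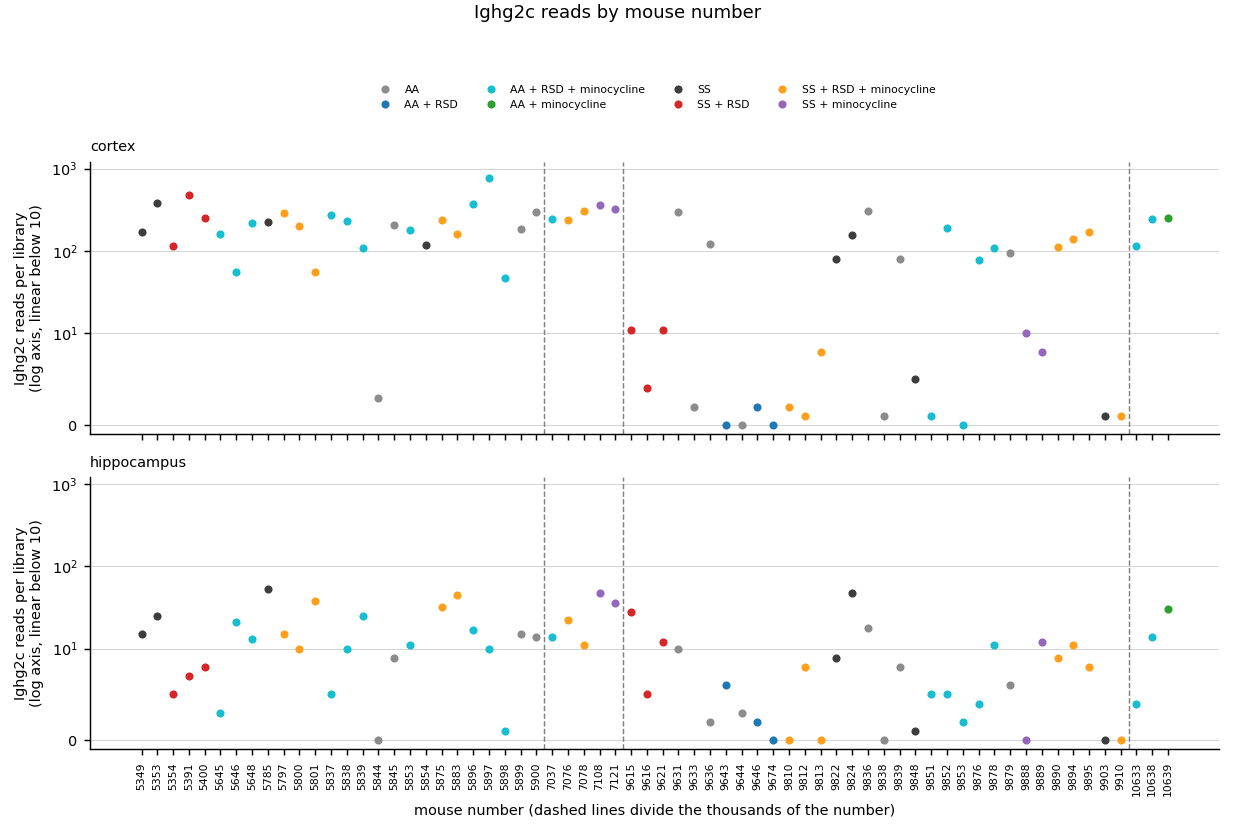
Ighg2c reads in each library against the mouse's place in the order of mouse numbers, in the cortex and the hippocampus. Dashed lines divide numbers beginning with 5, 7, 9 and 10, and the empty band between 11 and 47 reads in the cortex separates 20 libraries from 46.

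In the cortex libraries above the gap, Ighm and Ighg2c levels ran together (Pearson's r = 0.79, Spearman's rho = 0.75, n = 46). The permutation p was 1e-05 for both, the smallest that 100000 resamples can give, with an adjusted p of 2.0e-05 over the pair of clusters, and r was 0.72 without the 2 libraries farthest from the median of the x axis. Below the gap r was 0.18 and rho 0.22 (n = 20, permutation p = 0.461 and 0.345). The gap was set from the same Ighg2c counts, and libraries of all groups and both genotypes were pooled. Both genes were read in the same libraries, so the depth and any batch of a library bear on both. These p-values describe the relation and stand for no independent support. In the hippocampus Ighg2c was low throughout, at 0 to 53 reads and 0 to 1.03 CPM (median 0.238).

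Ighg2b and Igha, the other switched heavy chains, were close to the limit of detection in most libraries. Ighg2b had no read in 33 of 66 cortex and 32 of 64 hippocampus libraries, where a count of 0 allows a level up to that of 3 reads. It totalled 361 reads in the hippocampus, and 61.5% of them came from 3 libraries: 104 reads in mouse 9615 (SS + RSD), 89 in mouse 9643 (AA + RSD) and 29 in mouse 9824 (SS). Igha totalled 1401 reads there, 46.3% of them in 3 libraries, namely 318 in mouse 9615, 229 in mouse 9643 and 101 in mouse 9824. The same 3 mice thus had the most reads of both genes. By CPM mice 9643 and 9615 led both genes, whereas mouse 9824 (0.502 CPM of Ighg2b, 1.75 CPM of Igha) was below libraries of other groups. In the cortex Igha was highest in the AA + minocycline mouse (121 reads, 2.48 CPM), followed by at most 1.74 CPM elsewhere.

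Igkc, the kappa light chain, was read in every library but with cortical and hippocampal medians of 0.392 and 0.402 CPM. The group medians in the cortex were 0.289 CPM in AA, 0.178 CPM in AA + RSD + minocycline, 0.617 CPM in SS, 0.796 CPM in SS + RSD, 0.870 CPM in SS + RSD + minocycline and 1.11 CPM in SS + minocycline mice, and in the hippocampus they were 0.225, 0.280, 0.870, 0.829, 0.557 and 1.20 CPM in the same order. The per-length level of Ighm had a median ratio to that of Igkc of 22.5 (range 0.822 to 124) in cortex libraries and 10.2 (0.423 to 123) in hippocampus libraries, whereas an assembled antibody has as many light as heavy chains. A few libraries held much of the Igkc: in the hippocampus these were mice 9643 and 9646 (both AA + RSD) with 16.5 and 14.7 CPM, mouse 9824 (SS) with 10.2 CPM, mouse 9615 (SS + RSD) with 9.31 CPM, mouse 9890 (SS + RSD + minocycline) with 7.62 CPM and mouse 9876 (AA + RSD + minocycline) with 5.70 CPM. In the cortex mouse 9848 (SS) had 9.97 CPM, and no other library exceeded 3.41 CPM. Igkc did not follow Ighm across libraries, where Spearman's rho of Igkc with Ighm was -0.16 in the cortex and 0.13 in the hippocampus, compared to 0.66 with Igha in both tissues (66 and 64 libraries of all groups). Both genes of a pair were read in the same libraries, so the depth and any batch of a library bear on both.

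**Figure D3:**
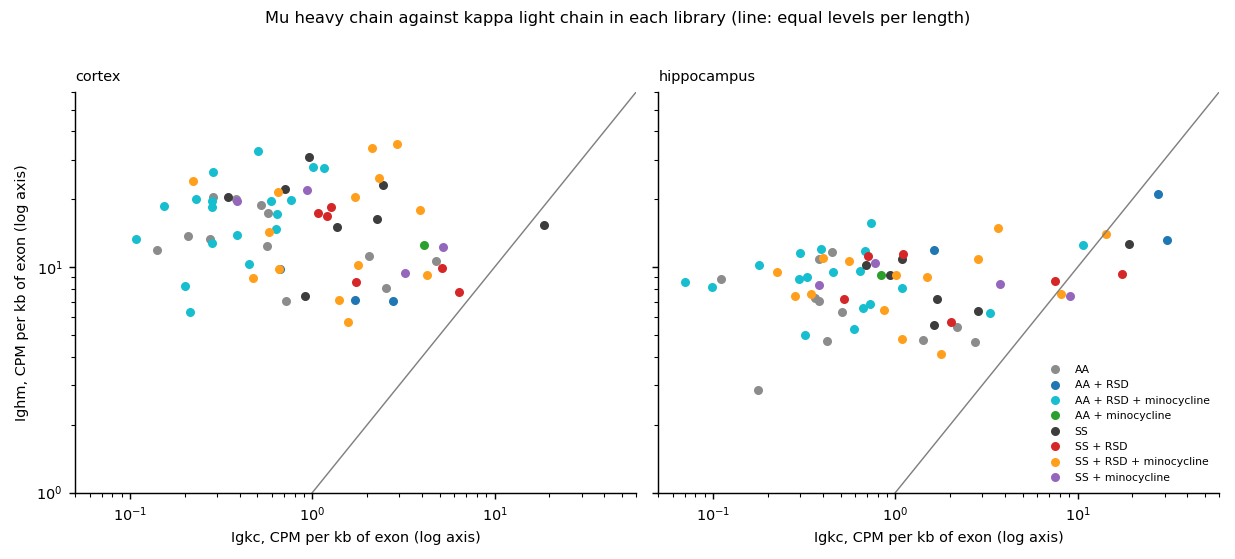
Ighm against Igkc in CPM per kilobase of exon, both axes logarithmic, for each library of the cortex and the hippocampus, coloured by group. The line marks equal levels. Nearly all libraries lie on the Ighm side of it, with median ratios of 22.5 and 10.2.

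Jchain was read in all but 1 library, a cortex library of an SS + minocycline mouse. Cortex levels had medians of 0.585 CPM in AA, 0.803 CPM in SS, 0.446 CPM in SS + RSD, 0.704 CPM in AA + RSD + minocycline and 0.743 CPM in SS + RSD + minocycline mice, with the AA + RSD mice at 0.228, 0.320 and 0.402 CPM. In the hippocampus the highest levels were those of mouse 9646 (3.57 CPM), mouse 9824 (2.46 CPM), mouse 9615 (2.40 CPM) and mouse 9643 (2.40 CPM), the mice that also had much Igkc. Cd79a, the B cell gene, was low, at 0.0963 to 0.965 CPM in the cortex and 0.0893 to 1.04 CPM in the hippocampus. Its level in the 2 AA + RSD mice with the most hippocampal Igkc was 0.156 and 0.466 CPM, inside the range of AA mice (0.0937 to 0.636 CPM).

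Reads on variable segments, of which each B cell clone uses 1 heavy and 1 light chain segment, were counted in the libraries with the most Igkc, a choice made after the values were seen. Over 346 segment genes the cortex libraries held 2206 reads and the hippocampus libraries 3273. In mouse 9890 the same segments led in both tissues. Igkv8-30 had 66 of 131 kappa segment reads in the cortex and 79 of 128 in the hippocampus. Ighv6-3 had 38 of 58 and 42 of 59 heavy segment reads. These segments were not confined to mouse 9890, and Igkv8-30 had 101 reads over all cortex libraries. In the cortex both were also called higher in AA + RSD than in AA mice (7 segments tested, 0.853% of all genes called). Both were called lower in AA + RSD + minocycline than in AA + RSD mice (3.60% of genes called). In mouse 9615 Ighv1-9 led the heavy segments in both tissues, with 13 of 39 and 40 of 155 reads, but the leading kappa segment differed (Igkv4-53 with 15 of 63 reads in the cortex, Igkv14-100 with 39 of 276 in the hippocampus). The other libraries counted were led by other segments. Igkv12-46 had 59 of 117 kappa segment reads in the hippocampus of mouse 9646, Igkv6-32 had 164 of 404 in that of mouse 9824, and Ighv8-8 had 55 of 80 heavy segment reads in the cortex of mouse 9848. In the hippocampus of mouse 9643 no segment had more than 54 of 244 kappa segment reads (Igkv1-110), so its reads were spread over many segments.

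The comparisons were made with edgeR's quasi-likelihood test, in which a gene is called at a Benjamini-Hochberg adjusted p under 0.05 over all genes tested. In the hippocampus of AA mice, RSD went with higher levels of 4 of the 7 members, all immunoglobulin constant genes. Igkc was at 16.5, 14.7 and 0.871 CPM in mice 9643, 9646 and 9674, compared to 0.0587 to 1.46 CPM in 11 AA mice (median 0.225). The log2 fold change was 4.57 ± 0.89 (SE, adjusted p = 0.0050). Ighg2b was at 2.77, 0.699 and 0 CPM compared to at most 0.141 CPM (log2 fold change 5.75 ± 1.17, adjusted p = 0.0074), and Igha at 7.13, 0.622 and 0.0396 CPM compared to at most 0.515 CPM (4.21 ± 1.02, adjusted p = 0.031). For these 3 genes mouse 9674 overlapped the AA mice and the other AA + RSD mice did not. Ighm rose by less (1.18 ± 0.30, adjusted p = 0.039). Its groups did not overlap, but mouse 9674, at 22.4 CPM in a library with cortex markers, lay just above the highest AA mouse (22 CPM), and the call was lost without mouse 9674 (adjusted p = 0.798) or mouse 9646 (0.183). Of all 21563 genes tested 1.19% were called.

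Jchain (2.40, 3.57 and 0.158 CPM compared to 0.200 to 1.64 CPM, log2 fold change 1.56, adjusted p = 0.205) and Cd79a (0.06, adjusted p = 0.961) did not pass. Without mouse 9674, whose hippocampus library held cortex markers, 9 genes in all were called and Igkc (5.11) and Ighg2b were among them. Without mouse 9643 the Igha difference was 1.13 (adjusted p = 0.672), and neither it nor Ighg2b was called. No member was called when the number series of the mice was a term in the model, where the log2 fold changes were 4.25 for Igkc, 4.79 for Igha, 5.98 for Ighg2b and 0.88 for Ighm. None of 14 plasma cell and 9 B cell genes tested beside the members was called. The plasma cell genes summed to 119 to 198 CPM over all hippocampus libraries, with medians of 62.6 CPM for Xbp1 and 61.5 CPM for Txndc5. At such levels Xbp1 and Txndc5 could hardly show a change of a few CPM. Of 4 T cell genes 2, Trbc2 and Cd4, were higher. The T cell genes summed to 25.5 CPM in mouse 9674 and to 2.71 and 1.94 CPM in the other AA + RSD mice. Their median sum over all libraries was 17.9 CPM in the cortex and 1.77 CPM in the hippocampus. Trbc2 had medians of 14.8 and 0.336 CPM. The cortex library of mouse 9674 summed to 2.44 CPM, so the high sum lay in its library that held cortex markers. Choroid plexus genes summed to 305 to 664 CPM in AA + RSD mice and to 159 to 5898 CPM in AA mice, and none was called. Meningeal fibroblast genes, of which 0 of 8 were called, summed to 934 and 988 CPM in mice 9643 and 9646 and to 432 CPM in mouse 9674. AA mice had 239 to 738 CPM, so the sums were high in the AA + RSD mice with the most Igkc. Most hippocampus reads of this list were on 1 gene, Ptgds (903727 of 1090201). Much Igkc also occurred without such sums: SS + RSD + minocycline mice had at most 463 CPM, while mouse 9890 among them had 7.62 CPM of Igkc. The part of these genes in the result was not tested.

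**Figure D4:**
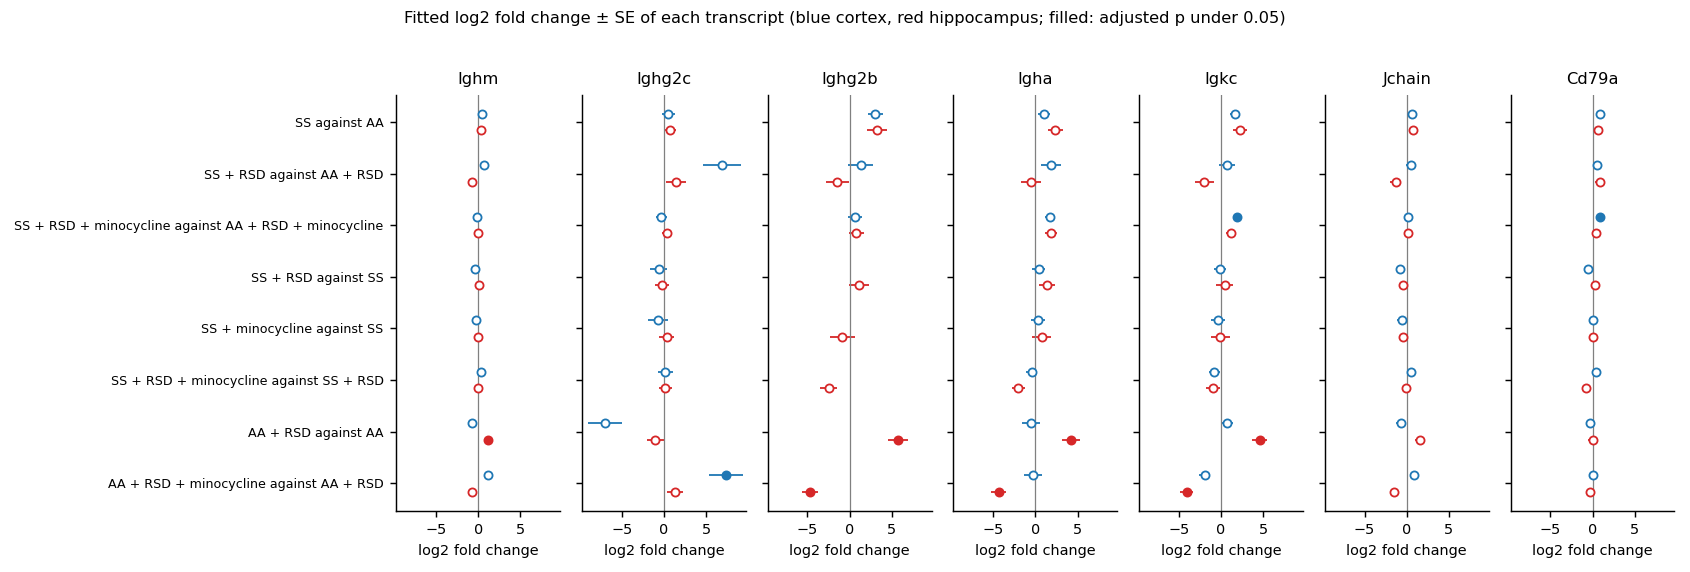
Log2 fold change of each member with its SE in 8 comparisons, in the cortex (blue) and the hippocampus (red), with filled points for an adjusted p under 0.05. In the hippocampus Igkc, Igha and Ighg2b stand between 4.21 and 5.75 for RSD in AA mice and between -4.07 and -4.67 for minocycline added to RSD.

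Compared to AA + RSD mice, AA mice given minocycline with RSD had lower Igkc, Igha and Ighg2b in the hippocampus, with 2.67% of 21563 genes called. Igkc was at 0.0371, 0.280 and 5.70 CPM (lowest, median and highest of 18), and the log2 fold change was -4.07 ± 0.77 (adjusted p = 0.0021). Igha differed by -4.34 ± 0.88 (adjusted p = 0.0043) and Ighg2b by -4.67 ± 0.96 (adjusted p = 0.0044). This comparison shares the 3 AA + RSD mice with the comparison of AA + RSD with AA mice, so the pair are not independent. Among related genes 1 of 14 plasma cell genes (Derl3, of the secretory pathway) and 2 of 9 B cell genes (Cd22 and Ly6d) were lower. So were 2 of 4 T cell genes (Trbc2 and Cd4). The T cell sum of the AA + RSD mice was 25.5 CPM in mouse 9674, whose hippocampus library held cortex markers, and 2.71 and 1.94 CPM in the others. Of the 3 members, Igkc alone was called without mouse 9643, and none of the 3 with number series as a term, in which Jchain alone was called and the log2 fold changes were -3.40 for Igkc, -4.97 for Igha and -4.77 for Ighg2b.

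In the cortex of the same mice a different member moved. RSD in AA mice gave no called member (0.853% of 21927 genes called), with 2 at an unadjusted p under 0.05, while the Wald test of DESeq2 called Ighg2c. Ighg2c was the 1 member called between AA + RSD + minocycline and AA + RSD mice (log2 fold change 7.39 ± 2.0, adjusted p = 0.034), where 3.60% of genes were called. The pooled CPM was 213 times that of the AA + RSD mice, which had 2 reads in all, with an exact 95% interval of 59 to 1763 that covers counting error only. The call was lost without any of the AA + RSD mice, with adjusted p of 0.068 to 0.292, and with number series as a term (0.115). The choroid plexus genes, 8 of 8 higher in AA + RSD than in AA mice and 8 of 8 lower with minocycline, summed to 6963 CPM in the cortex library of mouse 9674 and to 326 and 269 CPM in those of mice 9643 and 9646. Without mouse 9674 edgeR called 0 genes in either comparison, with 1148 and 2866 genes at an unadjusted p under 0.05, and DESeq2 was not run without that mouse. Cortical Igkc was at 0.352, 0.910 and 1.48 CPM in AA + RSD and at 0.0750 to 2.54 CPM in AA mice, which overlapped. It was lower in AA + RSD + minocycline than in AA + RSD mice by a log2 fold change of -1.94 ± 0.63, which did not pass (adjusted p = 0.066) but did in a model of only the groups compared (-1.97, adjusted p = 0.040), with adjusted p of 0.053 to 0.455 under the other alternatives.

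Between genotypes, edgeR called members only after RSD with minocycline, and whether the genotype difference itself changed with minocycline was not tested. In the cortex 2 members were called there, with 0.624% of 22926 genes called. Igkc was at 0.117, 0.870 and 2.27 CPM (lowest, median, highest of 14) in SS and at 0.0572, 0.178 and 0.618 CPM (of 18) in AA mice. The log2 fold change was 1.88 ± 0.47 (adjusted p = 0.031). Cd79a was at 0.306, 0.502 and 0.944 CPM compared to 0.15, 0.273 and 0.491 CPM (0.89 ± 0.21, adjusted p = 0.020). The groups overlapped for both genes. The B cell genes Ms4a1 (log2 fold change 1.78) and Blk (2.52) were higher as well, 2 of 14 tested. So were the T cell genes Cd4 and Cd3e, 3 of 6 neutrophil genes and 4 of 4 red cell precursor genes, so blood cell markers moved with the members, and their part in the result was not tested. Igkc and Cd79a were both called without the libraries labelled 5844, 5853, 7078 and 9631, and neither with the leading digits of the mouse number as a term (log2 fold changes 1.61 and 0.83, adjusted p = 0.165 and 0.079).

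In the hippocampus the same comparison called no member (2.74% of 23215 genes called), with 1 member, Igha, at an unadjusted p under 0.05 and none called by DESeq2. The genes called were 635 in all, 130 with DESeq2 and 77 with the leading digits of the mouse number as a term. Of 13 B cell genes tested 5 were higher there, among them Cd79b, the partner of Cd79a (log2 fold change 1.19, adjusted p = 0.037), and the IgD gene Ighd rose as well (0.89, adjusted p = 0.024). The summed B cell genes ranged from 6.60 to 19.5 CPM in SS and from 7.46 to 10.6 CPM in AA mice. Of blood cell markers, 3 of 5 neutrophil genes and 5 of 5 red cell precursor genes were higher too.

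Between untreated SS and AA mice edgeR and DESeq2 called no member in either tissue, where edgeR called 0.214% (cortex) and 0.159% (hippocampus) of genes. At an unadjusted p under 0.05, 3 members were higher in each tissue. In the cortex these were Ighg2b (log2 fold change 3.04 ± 0.92), Igkc (1.63 ± 0.57) and Cd79a (0.87 ± 0.27), and in the hippocampus Ighg2b (3.25 ± 1.18), Igha (2.38 ± 0.90) and Igkc (2.23 ± 0.83). Hippocampal Igkc was at 0.368, 0.870 and 10.2 CPM in SS mice (lowest, median, highest of 7), compared to the AA median of 0.225 CPM. Red cell precursor genes rose in 4 of 4 tested in the cortex and 4 of 5 in the hippocampus.

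Between SS + RSD and AA + RSD mice edgeR called no member, with 0.493% of genes called in the cortex and 0.780% in the hippocampus. At an unadjusted p under 0.05 there was 1 member in the cortex, Ighg2c, which DESeq2 called, and there were 2 in the hippocampus, Ighm and Jchain, neither called by DESeq2. Ighg2c was at 0.111 to 6.76 CPM in SS + RSD mice and at 0 to 0.0910 CPM in AA + RSD mice, without overlap (log2 fold change 6.87 ± 2.30, adjusted p = 0.352). The test of whether RSD acted differently in the genotypes called no member by edgeR or DESeq2, with 0.236% of genes called in the cortex and 0.0474% in the hippocampus. At an unadjusted p under 0.05 it held Ighg2c in the cortex and Ighm, Ighg2b, Igkc and Jchain in the hippocampus, where the Igkc difference between the effects was -4.20 ± 1.41 (adjusted p = 0.392).

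Within SS mice no member was called in any comparison, by edgeR or by DESeq2. RSD gave 2.57% of 19906 genes called in the cortex and 3.11% of 20701 in the hippocampus, with 0 members at an unadjusted p under 0.05. Hippocampal Igkc was at 0.279, 0.378, 0.589, 1.07, 3.99 and 9.31 CPM in the 6 SS + RSD mice, with the 3 lowest values in the mice whose numbers begin with 5. Minocycline alone gave 0% of genes called in either tissue, with 1406 and 449 genes at an unadjusted p under 0.05 and 0 members among them. Minocycline added to RSD gave 8.85% and 5.96% of genes called. With number series as a term, edgeR called 0 genes for RSD (615 and 1328 at an unadjusted p under 0.05 in the cortex and hippocampus) and 0 for minocycline added to RSD (442 and 2898). Without that term, 0 members in the cortex and 3 in the hippocampus had, for minocycline added to RSD, an unadjusted p under 0.05, namely Ighg2b (log2 fold change -2.49), Igha (-2.01) and Cd79a (-0.79). Of the related genes, 1 of 11 plasma cell genes was called in the cortex, where 8.85% of all genes were. This was the transcription factor Xbp1, which had a median of 71.7 CPM over cortex libraries and fell by 0.43 on the log2 scale (adjusted p = 0.019). Of genes that receive or carry antibodies, 2 of 8 fell in the cortex, Fcgr3 and Fcgrt. Fcgrt, the receptor that carries IgG across cells, fell in the cortex by 0.69 and in the hippocampus by 0.59 (adjusted p = 0.012 and 0.046). These calls too were lost with number series as a term.

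The tissues differed in 5 of the 7 members, where 52.8% of 24177 genes were called. Ighg2c was lower in the hippocampus by a log2 fold change of -3.59 ± 0.32 (adjusted p = 1.97e-19), Ighm by -0.85 ± 0.10 (adjusted p = 1.82e-12) and Cd79a by -0.40 ± 0.12 (adjusted p = 0.0038). Igkc (0.67 ± 0.29, adjusted p = 0.041) and Jchain (0.39 ± 0.16, adjusted p = 0.030) were higher there. With both tissues of a mouse paired as a replicate block, 4 members were called and Igkc was not (0.27 ± 0.21, adjusted p = 0.265), and without mouse 9674 its adjusted p was 0.053. The heavy chains of IgM and IgG2c were thus higher in the cortex, and for the kappa chain the difference was lost under the pairing.

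Levels in the cortex and hippocampus of the same mouse were correlated on the log2 scale for most members, over 64 mice and 8 relations. Igkc had Pearson's r = 0.57 and Spearman's rho = 0.65, with a permutation p of 1e-05, the smallest that 100000 resamples can give, and adjusted p of 8.0e-05 and 4.0e-05. Its r was 0.58 without the 2 mice farthest from the median and 0.45, 0.59 and 0.65 within number series A, B and C (14, 42 and 8 mice). Jchain had r = 0.47 and rho = 0.54 (adjusted permutation p = 0.00021 and 4.0e-05), but 0.21, 0.56 and -0.10 within the series. Igha had r = 0.42 and rho = 0.41 (adjusted permutation p = 0.0013 and 0.0023), and 0.48, 0.42 and 0.53 within them. Mice with more Igkc or Igha in the cortex thus tended to have more in the hippocampus, and for Jchain this held in series B. All groups were pooled in these correlations and in their permutations, and no r was computed within a group or genotype. Differences between groups can thus be part of these values.

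Ighg2b had r = 0.55 and rho = 0.35 (adjusted permutation p = 0.00021 and 0.0063), and Ighm had r = 0.33 and rho = 0.37 (adjusted permutation p = 0.011 and 0.0063). The values within series A, B and C were 0.59, 0.54 and 0.045 for Ighg2b and 0.020, 0.54 and 0.46 for Ighm. Without the 2 farthest mice r was 0.50 for Jchain, 0.38 for Igha, 0.53 for Ighg2b and 0.33 for Ighm. For Cd79a r was 0.23 and rho 0.27 (adjusted permutation p = 0.074 and 0.036), with 0.27 without the 2 farthest mice and 0.44, 0.26 and 0.14 within the series. For Ighg2c no pooled value is given, and the gap that divides its mice was set from the same cortex counts. Above the cortical gap r was 0.34 and rho 0.33 (45 mice, adjusted permutation p = 0.030 and 0.036), with 0.46 without the 2 farthest mice and 0.90, 0.35 and 0.36 within the series. Below the gap r was 0.29 and rho 0.24 (19 mice, adjusted permutation p = 0.227 and 0.327), with 0.34 without the 2 farthest and 0.84 and 0.060 within series A and B.

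**Figure D5:**
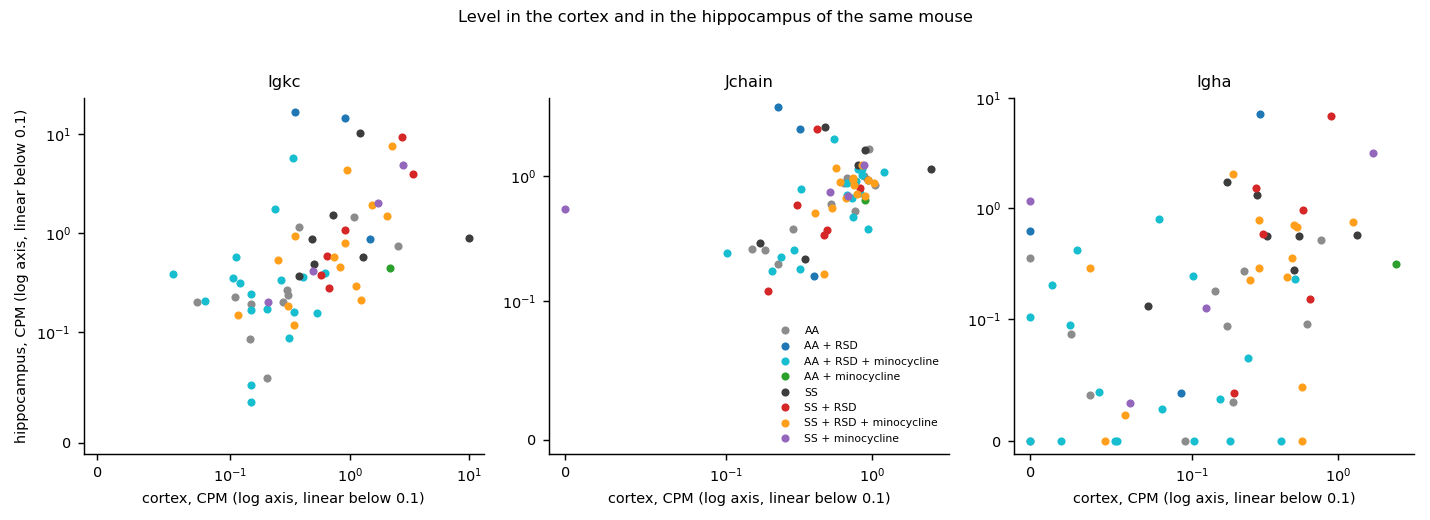
Level in the hippocampus against that in the cortex of the same mouse, in CPM, for Igkc, Jchain and Igha (64 mice, coloured by group). Both axes are logarithmic above 0.1 CPM and linear below. Pearson's r, computed on log2 CPM with a prior count of 2 rather than on the plotted scale, is 0.57, 0.47 and 0.42.

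Leaving the members themselves aside, the genes whose levels across cortex libraries were most like those of Igkc were H2-Ab1 (Spearman's rho = 0.81), Cd74 (0.79), H2-Aa (0.76), Ccl5 (0.76) and H2-Eb1 (0.75), of 22926 genes over 66 libraries. In the hippocampus they were Tek (0.67), Cdh5 (0.67), Lyz2 (0.67), Ifi209 (0.66) and H2-Q4 (0.66). Those most like Jchain in the cortex were Gm32444 (0.78), Abhd18 (0.78), Supt20 (0.77), Gmcl1 (0.77) and A230057D06Rik (0.76). For Ighm, added to this search after its values were seen, they were Myh7b (0.78), Gm26783 (0.73), Gm40518 (0.72), Sema7a (0.71) and Gm13601 (0.70). Ighg2c, a member, was closer to Ighm in the cortex than any of these (0.86). The member closest to Igkc was Igha in both tissues (0.66). For Jchain no member exceeded 0.27 in the cortex. In the hippocampus its rho was 0.43 with Igkc, 0.42 with Ighg2b and 0.37 with Igha, and 0.22, -0.12 and -0.090 with Cd79a, Ighm and Ighg2c.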

How the data were processed

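Bulk RNA of the cortex and hippocampus was measured by the authors with directional libraries of polyadenylated RNA, read as single reads of 85 bases. Per the labels the reads were aligned to GRCm39 with STAR, and the authors deposited, for each tissue, raw read counts per GENCODE gene without normalization. The strand setting, the STAR version and the annotation release are not given in the sources used here. Reads mapping to several places (2.44% to 9.51% of a library) were not counted on a gene, which can lower genes with near-copies, and they stayed, with unmapped and unassigned reads, out of library sizes (16.6% to 51.7% of reads in all).

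CPM was computed from the deposited counts as reads over all reads on genes, and log2 CPM with a prior count of 2. Differences were tested in R 4.3.3 with edgeR 4.0.16 (quasi-likelihood test, TMM factors, a minimum count of 10 and a minimum total of 15 by group), with Benjamini-Hochberg adjustment over all genes. Stress and minocycline were compared in a model of all groups of a genotype, and genotypes and their interaction with RSD in a model of all groups, for each tissue. The text names the 7 members and the called genes of gene lists for plasma cells, B cells and other cell types. The members and lists were chosen with earlier results of these data known. Genes of the lists that are not reported here were left out of the counts and sums. The cortex and hippocampus libraries of a mouse were paired by the mouse number in the labels. Between them r was 0.23 to 0.57 for 6 members, and the lowest, that of Cd79a, did not pass (adjusted permutation p = 0.074). The study does not state that replicates of a group came from separate litters or cages.

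Alternatives were DESeq2 1.42.0, RLE size factors, no filter, leaving out libraries, and terms for mouse number. The scripts were tested on simulated data. Two-sided permutation tests used 100000 resamples in Python 3.11.15 with scipy 1.17.1. All intervals and limits cover counting error only. 1 unassigned sample, 3 columns that match no labelled sample and the pair of libraries with identical counts in each tissue were not used. Depth was 16295042 to 107713193 reads on genes in the cortex and 12869149 to 68731008 in the hippocampus, and the members had 160 to 76600 reads in all libraries of a tissue.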

Additional observations from a re-analysis of the deposited data

Results flagged for a closer look

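Each of the 7 genes was checked in each group of 4 to 10 libraries, 42 checks in all, for a library apart from the others of its group, and 4 were found. Chance gives about 1 in 20. Values are CPM from log2 CPM with 2 reads added. In the cortex of SS mice Igkc was at 10.03 in mouse 9848 (269 reads, compared to 3 to 28 in the others). In the hippocampus of SS mice Igkc was at 10.3 in mouse 9824 (592 reads, compared to 21 to 58). Ighg2b was at 2.32 in the hippocampus of mouse 9615 (104 reads, compared to 0 or 1 in the other SS + RSD mice). At the low end, Ighg2c was at 0.0519 in the hippocampus of mouse 9888 (0 reads, compared to 12 to 48 in the other SS + minocycline mice). The first 3 are libraries with many reads of several members: mouse 9848 also had 31 Ighg2b and 69 Jchain reads in the cortex, and mouse 9824 had 101 Igha and 142 Jchain reads in the hippocampus. The number of mouse 9888 begins with 9, and its cortex had 10 Ighg2c reads.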

How the results depend on the processing

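In the 5 comparisons with a called member, 27 of 46 counts of members called under an alternative stayed within 1.5 times the reported count and 19 did not. In the 14 comparisons with none, 131 of 133 stayed at 0. Of 126 fold changes of called members 88 kept their side of the threshold, 38 were no longer called and none changed direction. Between the tissues 3 of 7 members tested were called without a filter on low counts, where 14808 of 41821 genes were called. In AA control mice alone, 2 of the 4 members tested were called (6559 of 17665 genes). With mice as a replicate block 4 of 7 were called (14359 of 24165 genes), with Igkc lost. In the cortex, AA + RSD + minocycline compared to AA + RSD mice gave 0 members with number series as a term (1135 of 21927 genes called). It gave 2 of 7 members with DESeq2 (2049 of 37409 genes) and 2 of 5 in a model of only the groups compared (346 of 19808). Leaving out each AA + RSD mouse in turn gave 0 to 0 members. There 641, 707 and 0 genes were called without mice 9643, 9646 and 9674. DESeq2 also called 1 member in the cortex, Ighg2c, for AA + RSD compared to AA mice (112 of 37409 genes). It did so for SS + RSD compared to AA + RSD mice too (94 of 39586 genes). After RSD with minocycline, SS compared to AA mice gave 1 member in the cortex without a filter (132 of 39586 genes). They gave 0 with the leading digits of the mouse number as a term (111 of 22926) and 1 with the identical libraries kept (133 of 22900). In the hippocampus, AA + RSD + minocycline compared to AA + RSD mice gave 1 member with number series as a term (1740 of 21563 genes). They gave 1 with the leading digits of the mouse number (833 of 21563). Leaving out each AA + RSD mouse gave 1 to 3 members, with 9 to 1009 genes called. AA + RSD compared to AA mice gave 0 members with number series as a term (167 of 21563 genes) and 2 with DESeq2 (439 of 37164). They gave 0 of 6 members tested in a model of only the groups compared, where 0 of 19427 genes were called. Leaving out each AA + RSD mouse gave 2 to 3 members, with 9 to 729 genes called. The cause of these changes was not tested. These comparisons are limited by the terms for mouse number, by the groups put in the model and by having only 3 AA + RSD mice. Of these, mouse 9674 went against its tissue labels.

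Counts over all genes moved too. With number series as a term, 0 genes were called in either tissue for SS + RSD compared to SS and for SS + RSD + minocycline compared to SS + RSD mice. For AA + RSD compared to AA mice in the hippocampus 256 genes were called, 9 without mouse 9674, 729 without mouse 9643, 677 without mouse 9646 and 439 with DESeq2. For AA + RSD + minocycline compared to AA + RSD mice they were 576 in the hippocampus, 9 without mouse 9674 and 1740 with number series as a term, and 789 in the cortex, 0 without mouse 9674 and 2049 with DESeq2.

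Of 55 correlations between tissues under an alternative 41 kept their side of the threshold. With mice 5844, 5853, 7078 and 9631 left out, r for Cd79a was 0.26, and without the 2 mice farthest from the cortex median it was 0.27, both past an unadjusted permutation p of 0.05. In number series A, r was 0.48 for Igha, 0.020 for Ighm, 0.45 for Igkc, 0.21 for Jchain and 0.84 for Ighg2c below the gap. In series C it was 0.53 for Igha, 0.045 for Ighg2b, 0.46 for Ighm, 0.65 for Igkc, 0.36 for Ighg2c above the gap and -0.10 for Jchain, a change of sign among 8 mice. In series B it was 0.35 for Ighg2c above the gap.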

Other observations

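The AA + minocycline mouse (number 10639) entered no comparison. Its cortex held 121 Igha, 107 Igkc, 254 Ighg2c and 28 Cd79a reads, and its hippocampus 12, 17, 30 and 9. The Igha level was 2.48 CPM in its cortex and 0.312 CPM in its hippocampus.

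B cell precursor genes were thin in both tissues. Vpreb1, Vpreb2, Igll1, Rag1, Rag2 and Dntt together summed to a median of 0.437 CPM in the cortex and 0.525 CPM in the hippocampus, and 900 of their 1125 cortex reads were on Rag1. Genes that receive or carry antibodies were far more abundant, with medians of 45.5 and 44.8 CPM over 10 genes. Of these, Fcgrt had 43449 and Fcgr3 28450 reads in the cortex.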
